A study of Homo sapiens with 12 samples.

Results

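The APOBEC3 deaminases are a family of 7 human cytosine deaminase genes, APOBEC3A, APOBEC3B, APOBEC3C, APOBEC3D, APOBEC3F, APOBEC3G and APOBEC3H, which lie side by side on chromosome 22. They were picked out of the gene table by exact symbol, 7 of its 60099 genes, by a rule that uses no measured value. RNA was sequenced from head and neck squamous cell carcinoma (HNSCC) cells, lines Cal27 and HN30, after 24 h without interferon alpha (IFNα), with 20 ng/ml or with 200 ng/ml. The 12 samples carry the letters A to F, each with 2 replicates. Letters A, B and C (control, low dose and high dose) formed the first line set, and letters D, E and F (control, low dose and high dose) the second. The labels do not say which line is which, so each set is named by its letters, A-C or D-F. Both are established tumour lines, and sequencing used total RNA depleted of ribosomal RNA, with the strand kept.

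Each sample held between 10517448 and 16056734 counts assigned to genes. Pairs of samples correlated between 0.944 and 0.979 within a line set and between 0.721 and 0.758 across sets (log2 values over 13034 genes, 30 and 36 pairs). All 9 squamous epithelial markers examined, among them KRT5, KRT14, TP63 and CDH1, were detected, with a summed level between 1438 and 3843 CPM (counts scaled to library size) per sample. The T cell genes CD2 and CD3E, the NK cell gene NKG7 and the B cell genes MS4A1 and CD79A were at 0 in all 12 samples, which makes 3 of 5 T and NK cell markers and 2 of 3 B cell markers. The summed T and NK list reached at most 0.409 CPM and the B cell list 0.180. The other lists were detected at low levels, the 5 myeloid markers at 4.08 to 10.3 CPM summed, the 3 general leukocyte markers at 6.55 to 17.4 (CD53 at 0) and the 5 fibroblast markers at 13.1 to 21.4. The squamous marker list itself was not level. By the adjusted test described below, 4 of the 9 were higher at 200 ng/ml (4.98% of all tested genes) and 6 of the 9 were lower in untreated D than in untreated A (22.4%). Whether these markers had any part in the APOBEC3 values was not tested.

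APOBEC3 enzymes convert cytosine to uracil in single-stranded DNA. They act against retroviruses and mobile elements, and APOBEC3G, APOBEC3F, APOBEC3D and APOBEC3H are known as restriction factors that HIV counters with its Vif protein. APOBEC3A and APOBEC3B are the members most often linked to cytosine mutations in tumours, squamous cancers among them, and type I interferon raises several members in blood cells.

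The family is the product of gene duplication, and how alike its members are bears on how reads can be told apart between them. Each deaminase domain holds a zinc-binding motif with a Pro-Cys pair. APOBEC3A, APOBEC3C and APOBEC3H each had 1 such domain in the reference coding sequence used here, and APOBEC3B, APOBEC3D, APOBEC3F and APOBEC3G had 2. The count is of motifs and does not say which domains are catalytically active. The 60 coding bases around the Pro-Cys pair of the last domain show the relationships. They come from the GENCODE 29 transcripts on GRCh38, plus strand of chromosome 22, and capitals mark bases that differ from APOBEC3B.
APOBEC3A: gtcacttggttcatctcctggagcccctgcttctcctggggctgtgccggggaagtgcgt
APOBEC3B: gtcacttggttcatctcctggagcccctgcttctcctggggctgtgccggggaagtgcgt
APOBEC3C: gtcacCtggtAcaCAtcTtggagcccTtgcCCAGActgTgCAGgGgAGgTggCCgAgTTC
APOBEC3D: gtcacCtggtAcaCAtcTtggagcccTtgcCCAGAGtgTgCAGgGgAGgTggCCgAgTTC
APOBEC3F: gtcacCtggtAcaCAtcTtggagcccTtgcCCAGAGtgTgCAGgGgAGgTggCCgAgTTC
APOBEC3G: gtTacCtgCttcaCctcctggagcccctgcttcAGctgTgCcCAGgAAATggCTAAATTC
APOBEC3H: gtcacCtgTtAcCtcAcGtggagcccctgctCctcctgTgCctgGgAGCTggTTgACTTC

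These stretches are exonic and lie at chr22:38961486-38961545 for APOBEC3A, chr22:38991431-38991490 for APOBEC3B, chr22:39017853-39017912 for APOBEC3C, chr22:39031781-39031840 for APOBEC3D, chr22:39052161-39052220 for APOBEC3F, chr22:39086378-39086437 for APOBEC3G and chr22:39101312-39101371 for APOBEC3H. APOBEC3A and APOBEC3B were identical over these 60 bases, as were APOBEC3D and APOBEC3F, and APOBEC3C differed from that second pair at 1 base. APOBEC3G differed from APOBEC3B at 23 bases and APOBEC3H at 21.

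Over whole transcripts the overlap was uneven. Cutting the principal transcript of each gene into words of 31 bases, 61.7% of the words of APOBEC3B occurred in another member or in the overlapping locus AL022318.4, with 38.3% in APOBEC3A alone. The share was 35.1% for APOBEC3F, 28.9% for APOBEC3A, 25.7% for APOBEC3G, 6.35% for APOBEC3C and 0 for APOBEC3H. With words of 100 bases the shares were lower, at 36.5% for APOBEC3B, 13.5% for APOBEC3F, 13.0% for APOBEC3A, 11.3% for APOBEC3G and 0 for APOBEC3C. APOBEC3D stood at 85.0% with 31 bases and 84.4% with 100, and 83.7% of its 31-base words lie in AL022318.4, a read-through transcript locus of the same strand that spans APOBEC3C and APOBEC3D (chr22:39014363-39033276). APOBEC3A and APOBEC3B overlap in annotation too, since the transcript APOBEC3A-205 (chr22:38957522-38992778) runs into the APOBEC3B locus (chr22:38982347-38992804). How many of the words they share come from that overlap was not counted. A read inside a shared word cannot be given to 1 gene from its sequence alone, so the APOBEC3D values are uncertain throughout, and those of APOBEC3B, APOBEC3F, APOBEC3A and APOBEC3G less so.

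**Figure D1:**
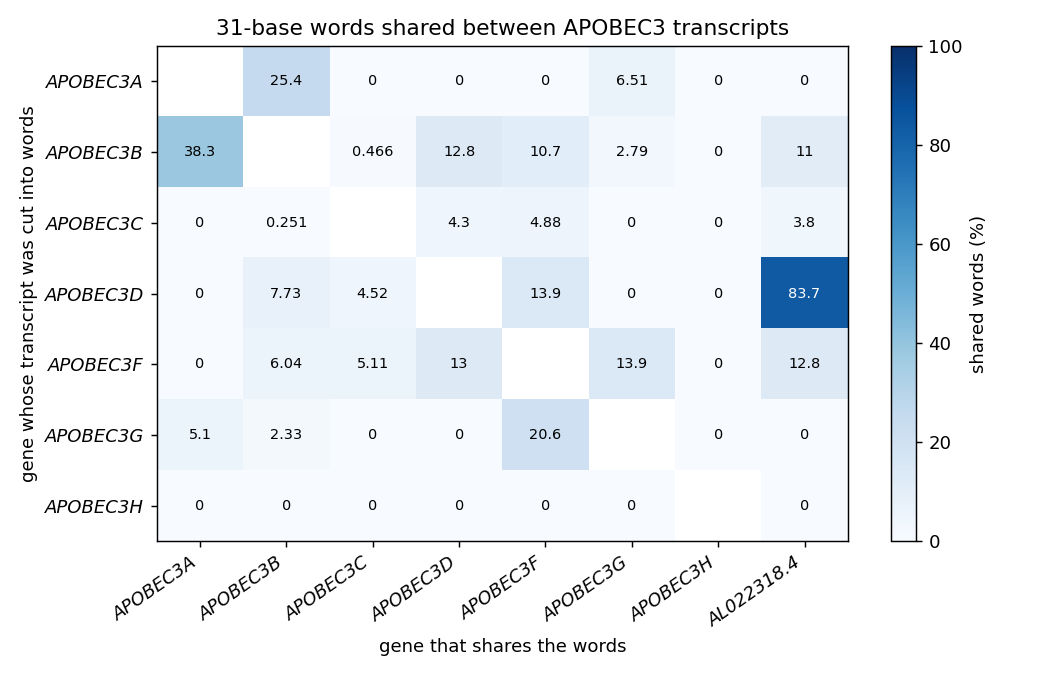
Percent of the 31-base words of each member's principal transcript (rows) that also occur in any transcript of another member or of AL022318.4 (columns). The darkest cell is APOBEC3D against AL022318.4 at 83.7%, APOBEC3B shares 38.3% with APOBEC3A, and the APOBEC3H row is 0.

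Levels within a gene are given below as normalised CPM, that is CPM after TMM scaling. Levels between genes are given as TPM, which corrects for transcript length. Differences come from edgeR's quasi-likelihood test over all 19944 genes that passed a filter on low counts. A difference passed when its Benjamini-Hochberg adjusted p was at most 0.05, and was called when it also reached 2-fold. Of the 7 members, 5 passed the filter, with mean counts from 44.6 for APOBEC3D to 1119 for APOBEC3C. APOBEC3A and APOBEC3H did not.

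Without IFNα, the 5 members that passed the filter were detected in both line sets, in different proportions. APOBEC3D was low, at 0.958 and 3.82 TPM in A. APOBEC3C, a broadly expressed member with weak antiviral activity, was the most abundant in every sample, at 55.7 and 53.6 TPM in A and 63.6 and 67.2 TPM in D. In A the order of TPM levels below it was APOBEC3G, APOBEC3F, APOBEC3B and APOBEC3D, with no overlap between neighbours. In D, APOBEC3F (20.1 and 21.4 TPM), APOBEC3G (18.7 and 20.7 TPM) and APOBEC3B (19.2 and 14.3 TPM) overlapped, and APOBEC3D lay below them at 0.905 and 1.60 TPM.

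APOBEC3B, a nuclear deaminase, was higher in untreated D than in untreated A. Its normalised CPM was 4.92 and 4.52 in the untreated A samples and 16.7 and 12.8 in the untreated D samples, with no overlap. The difference of D against A was 1.65 on the log2 scale (SE 0.18, 3.13-fold, edgeR adjusted p = 6.46e-05). APOBEC3B was the 1 member called in this comparison, in which 26.6% of all tested genes were called, 15.7% as higher in D. In bulk RNA, fewer cells expressing a gene and less RNA per cell cannot be told apart.

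APOBEC3G, the cytoplasmic HIV restriction factor, went the other way. It stood at 33.2 and 34.9 normalised CPM in A and at 18.7 and 22.3 in D. The groups did not overlap, and the log2 difference of D against A was -0.73 (SE 0.13, edgeR adjusted p = 0.00144), which is 0.601 of the A level and short of 2-fold. APOBEC3G was thus 1 of 2 members that passed the adjusted test here, where 24.1% of tested genes passed as higher in D and 22.4% as lower. At an unadjusted p of at most 0.05 the same 2 members passed, beside 53.2% of tested genes.

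The other tested members did not pass between the untreated sets. APOBEC3C differed by 0.06 (SE 0.09, adjusted p = 0.654) and APOBEC3F by -0.10 (SE 0.12, adjusted p = 0.538) on the log2 scale. APOBEC3D differed by -0.79 (SE 0.49, adjusted p = 0.220). That value depended on untreated A replicates that disagreed, with 1.53 normalised CPM in replicate 1 and 4.84 in replicate 2. Without A replicate 1 the difference was -1.38 (adjusted p = 0.0220), and without A replicate 2 it turned to 0.28 (adjusted p = 0.669).

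**Figure D2:**
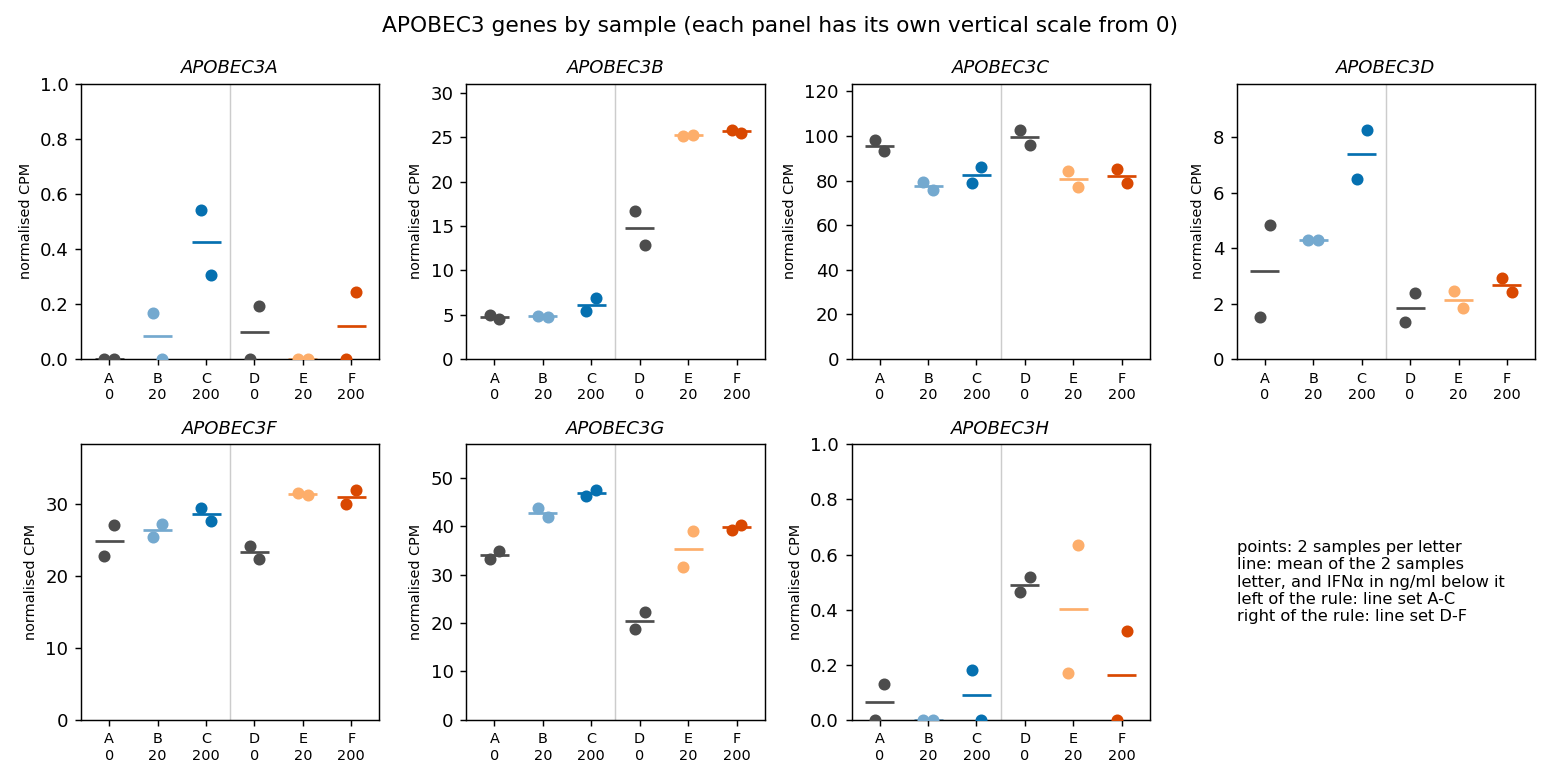
Normalised CPM of the 7 APOBEC3 genes in each of the 12 samples, by letter and IFNα dose, with a line at the mean of the 2 replicates and a separate vertical scale for each gene. APOBEC3B in D to F lies above every A to C sample, APOBEC3G is higher in every treated sample than in the controls of its set, APOBEC3C is lower in all 8 treated samples than in the 4 controls, and APOBEC3A and APOBEC3H stay below 0.7.

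Some members changed at 200 ng/ml IFNα and no averaged change of a tested member reached 2-fold. Averaged over both line sets, 0 of the 5 tested members were called against control, where 2.14% of all tested genes were called, and DESeq2 also called 0. By adjusted p alone 2 members were higher and 1 was lower, against a background of 4.98% of tested genes higher and 4.57% lower. At an unadjusted p of at most 0.05 all 5 passed, against 23.9% of tested genes. The median log2 change was 0.59 over the 5 members and -0.01 over all tested genes.

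APOBEC3G rose at both doses averaged over the line sets. Its normalised CPM was 33.2 and 34.9 in A, 43.7 and 42.0 in B and 46.3 and 47.5 in C. In D it was 18.7 and 22.3, in E 31.5 and 39.1 and in F 39.3 and 40.3. Every treated sample lay above both controls of its own set. The log2 fold change was 0.71 at 200 ng/ml (SE 0.09, 1.64-fold, edgeR adjusted p = 0.00150) and 0.56 at 20 ng/ml (SE 0.09, 1.47-fold, adjusted p = 0.00904). Both passed in each of the 12 fits that left out 1 library, with log2 fold changes from 0.64 to 0.77 at the high dose and from 0.47 to 0.64 at the low dose.

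Within D-F, APOBEC3G rose 1.94-fold at 200 ng/ml (log2 0.96, SE 0.13, edgeR adjusted p = 0.00251) and 1.73-fold at 20 ng/ml (log2 0.79, SE 0.13, adjusted p = 0.0111). The low-dose value did not pass without D replicate 1 (adjusted p = 0.113), without E replicate 2 (adjusted p = 0.0895) or when only the compared groups were fitted (adjusted p = 0.100). Within A-C the log2 fold changes were 0.46 (SE 0.13, adjusted p = 0.0690) and 0.33 (SE 0.13, adjusted p = 0.334), neither of which passed in edgeR. With DESeq2 the high-dose value in A-C passed (adjusted p = 0.0292). Side by side, the treated D-F samples held 31.5 to 40.3 normalised CPM and the untreated A samples 33.2 and 34.9.

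APOBEC3B passed within D-F, the set with the higher untreated level, and not within A-C. Normalised CPM was 16.7 and 12.8 in D, 25.2 and 25.3 in E and 25.9 and 25.5 in F, with no overlap between control and either dose. In A it was 4.92 and 4.52, in B 4.90 and 4.72 and in C 5.41 and 6.85. The low dose overlapped the control in A-C, and the high dose lay above it.

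In D-F the APOBEC3B log2 fold change was 0.80 at 200 ng/ml (SE 0.17, 1.74-fold, edgeR adjusted p = 0.0234) and 0.77 at 20 ng/ml (SE 0.17, 1.71-fold, adjusted p = 0.0390). The corresponding values in A-C were 0.38 (SE 0.19, adjusted p = 0.280) and 0.03 (SE 0.19, adjusted p = 1.00). Averaged over both sets, APOBEC3B passed at 200 ng/ml (log2 0.59, SE 0.13, adjusted p = 0.0183) and did not at 20 ng/ml (log2 0.40, SE 0.13, adjusted p = 0.133).

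These APOBEC3B results were close to the threshold. The averaged 200 ng/ml value lost its pass without A replicate 2, C replicate 2, D replicate 2, F replicate 1 or F replicate 2 (adjusted p from 0.0558 to 0.0688). The D-F value at 200 ng/ml lost it without D replicate 2, which had the lowest control level (log2 0.62, adjusted p = 0.152), without F replicate 1 (0.121) or without F replicate 2 (0.116). At 20 ng/ml in D-F it passed in 3 of the 12 such fits.

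Whether the response differed between the sets was tested as an interaction. At 200 ng/ml 0 of 5 members passed and 0 were called (background 1.88% and 0.998%), and 1 had an unadjusted p of at most 0.05 (background 17.7%), APOBEC3G, with a log2 difference of D-F over A-C of 0.50 (SE 0.19, edgeR adjusted p = 0.202). At 20 ng/ml again 0 passed and 0 were called (background 0.371% and 0.231%), and 2 had an unadjusted p of at most 0.05 (background 10.5%). Those were APOBEC3B at 0.75 (SE 0.25, adjusted p = 0.318) and APOBEC3G at 0.46 (SE 0.19, adjusted p = 0.418). DESeq2 called 0 in both. The larger fold changes in D-F were therefore not separated from those in A-C after adjustment.

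**Figure D3:**
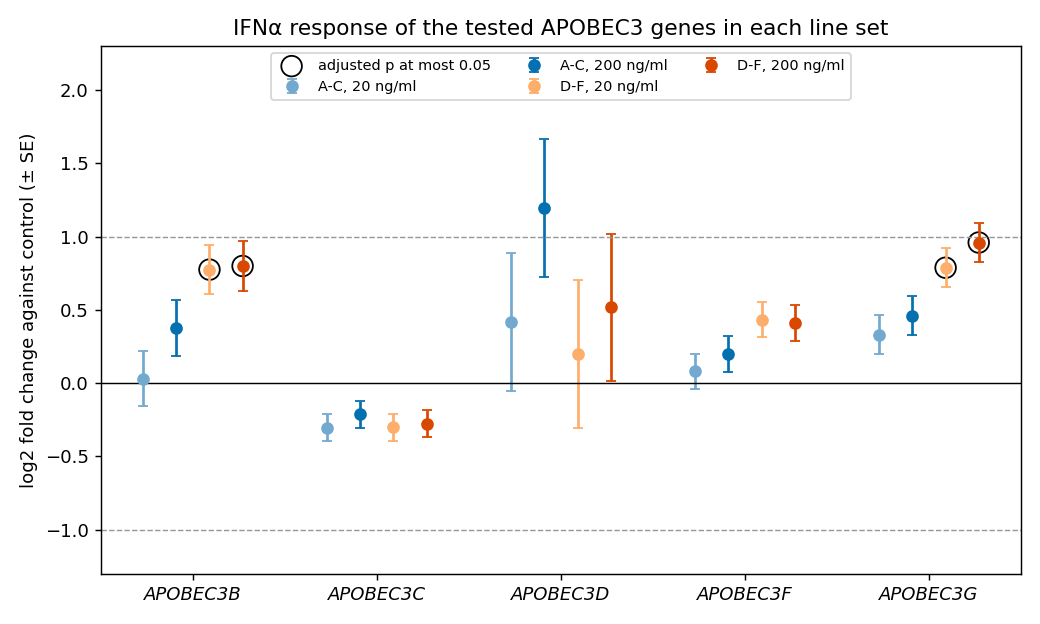
Log2 fold change against control with its standard error for the 5 tested members, by line set and IFNα dose, with dashed lines at 2-fold and a ring where the edgeR adjusted p is at most 0.05. The 4 rings are APOBEC3B and APOBEC3G in D-F at both doses, APOBEC3C lies below 0 in all 4 comparisons, and APOBEC3D has the widest errors.

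Counted by set, 2 members passed as higher in D-F at 200 ng/ml and 0 were called (background 3.44% and 2.09%), with 4 at an unadjusted p of at most 0.05 (18.7%). At 20 ng/ml in D-F the same counts were 2 and 0 (background 2.15% and 1.41%), again with 4 unadjusted (15.2%). In A-C, 0 passed and 0 were called at either dose. The background passing the adjusted test there was 7.18% at 200 ng/ml and 1.11% at 20 ng/ml, that called was 2.18% and 0.712%, and the unadjusted counts were 3 and 2 members (22.3% and 12.3%). DESeq2 called 0 in all 4 of these.

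APOBEC3F, an HIV restriction factor with 2 domains, moved less. It was at 22.8 and 27.0 normalised CPM in A, 25.5 and 27.3 in B and 29.5 and 27.7 in C, then at 24.2 and 22.4 in D, 31.5 and 31.3 in E and 30.0 and 31.9 in F. All 4 treated D-F samples lay above the controls, and in A-C the high dose lay just above and the low dose overlapped. The averaged log2 fold change was 0.30 at 200 ng/ml (SE 0.09, edgeR adjusted p = 0.0573), which missed the threshold, and 0.26 at 20 ng/ml (SE 0.09, adjusted p = 0.155). With RLE size factors or with DESeq2 the high-dose value passed (adjusted p = 0.0496 and 0.0495).

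APOBEC3D, also an HIV restriction factor, had the largest averaged log2 change at 200 ng/ml and the largest error. Counts were 19 and 75 in A, 52 and 62 in B and 72 and 81 in C, and 20 and 37 in D, 29 and 23 in E and 35 and 30 in F. In normalised CPM the C samples, at 6.49 and 8.29, lay above both A samples, at 1.53 and 4.84, while E overlapped D. The log2 fold change was 0.85 at 200 ng/ml (SE 0.34, edgeR adjusted p = 0.166) and 0.31 at 20 ng/ml (SE 0.35, adjusted p = 0.751).

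The APOBEC3D value depended on single libraries and on how the overlapping locus was counted. Without A replicate 2 the averaged 200 ng/ml log2 fold change became 1.39, and the A-C value moved from 1.19 to 2.26. Over the 12 fits that left out 1 library, the averaged value ranged from 0.56 to 1.39. The A-C value ranged from 0.60 to 2.26. AL022318.4 held 32 and 25 counts in A, 17 and 34 in B, 3 and 13 in C, 23 and 3 in D, 19 and 8 in E and 3 and 12 in F. When the counts of both loci were summed, A replicate 1 rose from 19 to 51, and the log2 fold change at 200 ng/ml fell from 0.85 to 0.45 (adjusted p = 0.274).

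APOBEC3C went against the rest of the family. Its normalised CPM was 98.1 and 93.3 in A and 102.9 and 96.0 in D, and between 75.8 and 86.3 in the 8 treated samples. On that scale every treated sample lay below all 4 controls. In TPM the separation was not complete, since C replicate 2, at 57.4, lay above both A controls, at 55.7 and 53.6. The averaged log2 fold change was -0.30 at 20 ng/ml (SE 0.07, edgeR adjusted p = 0.0324) and -0.25 at 200 ng/ml (SE 0.07, adjusted p = 0.0447), that is 0.811 and 0.843 of the control level.

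The passes of APOBEC3C were fragile, although the direction of its log2 fold change was not. The 200 ng/ml pass was lost in each of the 12 fits that left out a library (adjusted p from 0.0503 to 0.129) and the 20 ng/ml pass in 10 of them (all but those without C replicate 1 or C replicate 2), with log2 fold changes from -0.28 to -0.22 and from -0.33 to -0.27. Within a set no comparison passed, at -0.30 and -0.21 in A-C and -0.30 and -0.28 in D-F for the low and high dose.

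At 20 ng/ml averaged over both sets, 1 member was higher and 1 lower by adjusted p (background 2.33% and 1.6%), 0 were called (background 1.15%), by DESeq2 also 0, and 4 had an unadjusted p of at most 0.05 (background 16.8%). The doses themselves were not separated. Between 200 and 20 ng/ml 0 members passed, 0 were called and 0 had an unadjusted p of at most 0.05, with 0.135%, 0.0451% and 9.26% of all tested genes doing so, and DESeq2 called 0. The log2 difference of the high over the low dose was 0.15 for APOBEC3G (SE 0.09), 0.19 for APOBEC3B (SE 0.13), 0.05 for APOBEC3F (SE 0.09), 0.06 for APOBEC3C (SE 0.07) and 0.55 for APOBEC3D (SE 0.34).

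The remaining members were barely detected. APOBEC3A, known to be induced by interferon in monocytes, had 0 counts in both A samples, 2 and 0 in B, 6 and 3 in C, 0 and 3 in D, 0 and 0 in E and 0 and 3 in F. The limit that a count of 0 allows is 3 counts, or 0.194 to 0.307 normalised CPM by sample, so C replicate 1 alone was above it. Its 1.72 TPM came to 92.8% from APOBEC3A-203, a short retained-intron transcript. APOBEC3H had 0 and 2 counts in A, 0 and 0 in B, 2 and 0 in C, 7 and 8 in D, 2 and 8 in E and 0 and 4 in F. In A-C it was nowhere above the limit, in D both samples were, as were E replicate 2 and F replicate 2, and no fold change is reported for either gene, since neither passed the filter.

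Summed over the family, APOBEC3 RNA came to 112 and 116 TPM in A, 121 and 114 in B and 132 and 136 in C. In D it was 123 and 126, in E 148 and 151 and in F 156 and 158. Both high-dose groups lay above their controls. The APOBEC3C share of the family sum went from 49.6% and 46.2% in A to 36.5% and 42.3% in C, and from 51.7% and 53.3% in D to 37.4% and 33.3% in F.

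The APOBEC3G share was higher at the high dose in both sets. It came to 25.7% and 25.4% of the sum in A and 35.2% and 30.0% in C. In D-F it was 15.2% and 16.4% in D and 24.7% and 25.8% in F, and APOBEC3B went from 15.6% and 11.3% to 19.5% in each F sample. APOBEC3B held between 3.88% and 5.07% in all 6 A-C samples. In F the TPM order was APOBEC3C, APOBEC3G, then APOBEC3B and APOBEC3F overlapping, and then APOBEC3D. These shares are descriptions with no test.

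**Figure D4:**
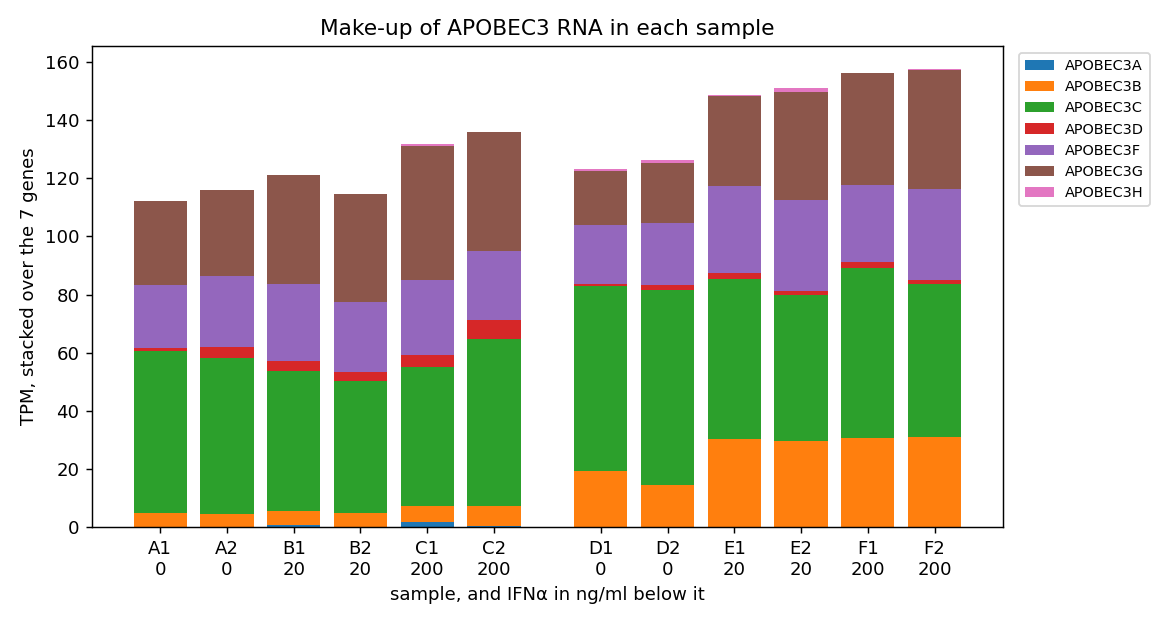
TPM of the 7 APOBEC3 genes stacked for each of the 12 samples, with the IFNα dose under each sample name. The bars reach 112 to 136 in A-C and 123 to 158 in D-F, with APOBEC3C the largest block throughout and the APOBEC3B block far wider in D-F.

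The transcript table listed 31 APOBEC3 transcripts, 18 of them protein coding and 7 with a retained intron. For APOBEC3G, the full coding form APOBEC3G-201 carried between 50.2% and 84.3% of the gene's TPM and the retained-intron form APOBEC3G-207 between 4.47% and 18.6%. The lowest share of APOBEC3G-201 was in C replicate 1, where APOBEC3G-202, a processed transcript, took 27.2% and had 0 counts in the other samples. For APOBEC3B, APOBEC3B-201 carried at least 78.5% in 10 samples, but 48.8% in D replicate 2 and 59.8% in F replicate 2, where APOBEC3B-204 took 31.1% and 26.9%.

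The APOBEC3D isoform split changed outright between some replicates, on 19 to 81 counts per sample. In 11 of 12 samples the gene's counts went entirely to either APOBEC3D-201 or APOBEC3D-202, and replicates of A, C and E took opposite choices. APOBEC3F-202, a coding form of 616 bases, held between 19.2% and 45.4% of APOBEC3F TPM. APOBEC3C-202, a target of nonsense-mediated decay, held from 0 to 25.3% of APOBEC3C TPM. These splits varied between replicates of the same letter, and the cause was not tested.

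Among 13 genes of other deaminases and editing cofactors, 8 were tested. APOBEC1, APOBEC2, APOBEC4 and A1CF had 0 counts in all samples. At 200 ng/ml 1 passed as higher and was called, where 4.98% of all tested genes passed as higher and 2.14% were called. It was ADAR, the adenosine deaminase that edits double-stranded RNA, at a log2 fold change of 1.17 (SE 0.06, edgeR adjusted p = 1.46e-06). The lowest was ADARB1 at -0.27 (adjusted p = 0.357). The list's median was 0.02, beside -0.01 over all tested genes. In untreated D against A, 1 of the 8 was higher and 4 were lower by adjusted p, beside 24.1% and 22.4% of all tested genes.

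Uracil left in DNA by a deaminase is removed by glycosylases and the abasic site is then repaired. All 15 genes of that list were tested, and at 200 ng/ml 2 were higher, 1 was lower and 1 was called, with a median of 0.02. Over all tested genes 4.98% were higher, 4.57% lower and 2.14% called, with a median of -0.01. The called gene was SAMHD1, a dNTP hydrolase that limits retroviral reverse transcription, at 2.72 (SE 0.08, edgeR adjusted p = 1.95e-08). SAMHD1 acts on nucleotides rather than on uracil or abasic sites in DNA, and no other gene of the list was called. FEN1, the flap endonuclease, passed at 0.33 (SE 0.07) and PARP1, the break sensor, at -0.24 (SE 0.06). The lowest value was APEX1, the abasic endonuclease, at -0.70 (SE 0.37, adjusted p = 0.298). The uracil glycosylase UNG was at 0.13 (SE 0.30, adjusted p = 0.875). In untreated D against A, 3 of the 15 were higher and 5 lower, where 24.1% and 22.4% of all tested genes were.

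Among 15 reported transcription regulators of APOBEC3 genes, all tested, 5 were higher at 200 ng/ml, 2 were lower and 3 were called, with a median of 0.01. The shares of all tested genes were 4.98% higher, 4.57% lower and 2.14% called, with a median of -0.01. Among those called were STAT2 at 1.80 (SE 0.08) and IRF9 at 2.69 (SE 0.13), both carriers of the interferon signal to the nucleus. IRF1 rose by 0.40 and LIN9, a subunit of the DREAM and MMB complexes, by 0.41, while MYBL2 was lower (-0.26). Of the NF-kappaB genes RELA (-0.03), NFKB1 (-0.02), RELB (-0.22) and NFKB2 (0.13), 0 passed.

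Between the untreated sets, 5 of these 15 regulators were higher in D and 8 lower by adjusted p (24.1% and 22.4% of all tested genes). MYBL2 (1.08, SE 0.08) and FOXM1 (1.06, SE 0.36), which drive cell cycle genes, were on the higher side. RELA (-0.72), RELB (-1.38), NFKB1 (-0.66), NFKB2 (-0.44) and IRF9 (-1.20) were on the lower side.

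The cluster's neighbours on chromosome 22 were examined next. The list held 28 other genes inside the cluster or within 250 kb of it, AL022318.4 among them. That locus overlaps APOBEC3C and APOBEC3D, so the list is not fully separate from the members. Of the 28, 13 were tested. At 200 ng/ml 1 was higher and 4 were lower by adjusted p, with 0 called and a median of -0.44. Of all tested genes 4.98% were higher, 4.57% lower and 2.14% called, with a median of -0.01. GTPBP1 passed as higher at 0.46 (SE 0.06). CBX7 (-0.99, SE 0.16) and CBX6 (-0.44, SE 0.10), both Polycomb subunits, SUN2 (-0.70, SE 0.06), a nuclear envelope protein, and RPL3 (-0.45, SE 0.08), a ribosomal protein, passed as lower. The highest value was AL021707.6 at 0.81 (SE 0.36, edgeR adjusted p = 0.210).

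**Figure D5:**
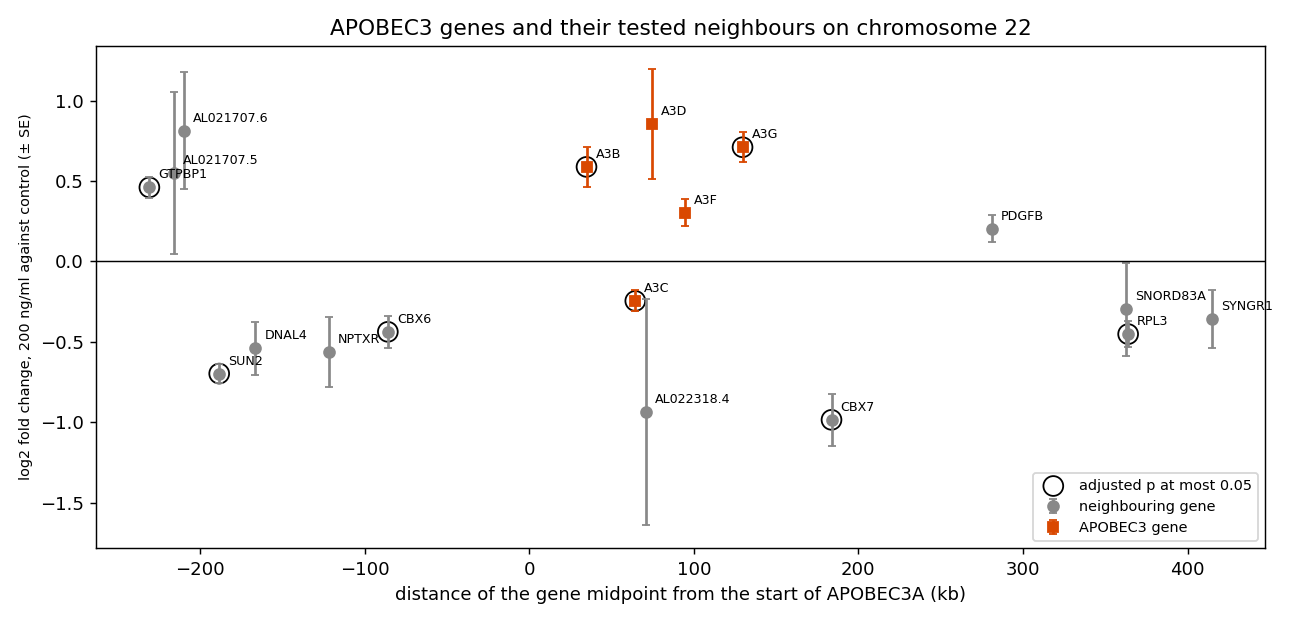
Log2 fold change at 200 ng/ml against control, with its standard error, for the 5 tested APOBEC3 genes and 13 tested neighbours, by distance of the gene midpoint from the start of APOBEC3A in kb, with a ring where the edgeR adjusted p is at most 0.05. APOBEC3B and APOBEC3G are ringed above 0 and APOBEC3C below, between SUN2 and CBX6 on the left side and CBX7 and RPL3 on the right, all 4 ringed below 0.

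The genes most like each member across the 6 groups were looked for among 13032 genes whose mean count reached 50. The measure was the root mean square difference of log2 group means after each gene's own mean was removed. For APOBEC3G they were MAD2L1BP (0.076), TLE4 (0.077) and PLAUR (0.078), and for APOBEC3B they were MARCKSL1 (0.135), DCBLD1 (0.136) and CSRNP1 (0.141). For APOBEC3C they were GALNT11 (0.032), a locus without a symbol (0.039) and AC073957.2 (0.050). For APOBEC3F they were ZNF592 (0.040), ZC3H12C (0.045) and BTN2A3P (0.045).

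The other members were not among the closest to any of them. The distance from APOBEC3G was 0.31 to APOBEC3F, 0.50 to APOBEC3C and 1.21 to APOBEC3B, beside a median of 0.50 over all genes. From APOBEC3B it was 0.97 to APOBEC3F and 1.06 to APOBEC3C, beside a median of 1.09. APOBEC3D was below the count minimum for this search.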

How the data were processed

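RNA from 12 samples was sequenced. The labels list Trimmomatic 0.36, HISAT2 2.1.0 and StringTie 1.3.3b with genome build GRCh38.p10, and give no roles for the tools. The deposited gene and transcript tables give estimated counts (whole numbers), TPM and FPKM for each sample. The authors' estimated counts were used for tests, the deposited TPM for levels between genes, and the deposited FPKM not used. How StringTie split reads between overlapping loci and isoforms is not given in the sources used here.

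Samples were grouped by title letter, which the labels pair with control, low or high dose, and the doses come from the series' design text. Tests used edgeR 4.0.16 in R 4.3.3 (filterByExpr, TMM, quasi-likelihood, 6 groups, 6 residual degrees of freedom, common biological coefficient of variation 0.196). Each SE was obtained from the size of the log2 fold change and the root of its F statistic. DESeq2 1.42.0 was an alternative. On simulated counts for the 200 ng/ml comparison (19498 genes), 52 of 98 genes changed 2-fold and 74 of 98 changed 4-fold passed the adjusted p, with 8 false among 134. With the 2-fold threshold added, 25 of the 98 and 74 of the 98 were called, so a true 2-fold change was usually not called. The simulation changed 200 genes, while 993 passed as higher and 912 as lower in the data. Alternatives were RLE size factors, no filter, fitting only the compared groups, a replicate block, an unadjusted threshold and leaving out each library, where the lone sample left is assumed to vary like the other groups. Dropping the fold threshold and summing APOBEC3D with AL022318.4 were added after seeing the data. The members and lists were chosen with earlier results of these data known. Genes named were the 7 members, the highest and lowest of each list at 200 ng/ml, and the 3 genes nearest each member. The other list genes, chosen after their values were seen, are named as examples, and some list genes are not reported here. Sequences were read from GENCODE 29 transcripts, taking the APPRIS principal transcript with a CCDS entry and, where tied, the lowest number. All 31 transcripts had the same positions in GENCODE 29 as in the deposited table. The labels do not say that replicates were separate cultures, so p-values measure the spread between these samples, which may be technical. Replicates of a letter differed beyond counting noise (chi-square per degree of freedom 11.7 to 16.4). These are estimated counts, whose division between loci can vary, so this check cannot exclude repeated libraries. Each replicate was treated as a separate sample.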

Additional observations from a re-analysis of the deposited data

How the results depend on the processing

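The numbers of members called were as given under RLE size factors, no filter on low counts, DESeq2 and fits of only the compared groups. Dropping the 2-fold threshold gave 3 members at 200 ng/ml, 2 at 20 ng/ml, 2 in D-F at either dose and 2 between untreated D and A. With unadjusted p and the 2-fold threshold, the 200 ng/ml comparison in A-C gave 1, APOBEC3D (log2 1.19, edgeR unadjusted p = 0.0308). Of all tested genes, 22.3% reached that p without a fold threshold. The share that also reached 2-fold is not reported here. Leaving out 1 library gave 0 to 1 called at 200 ng/ml averaged (1 without A replicate 2, APOBEC3D), 0 to 1 in A-C (without A replicate 2, APOBEC3D), 0 to 1 in D-F (without D replicate 2, APOBEC3G) and 1 to 2 between untreated D and A (2 without A replicate 1, APOBEC3B and APOBEC3D). For the fits that left out a library, the share of all tested genes called is not reported here. The cause of these changes was not tested.

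Between untreated D and A, 2 members reversed without A replicate 2: APOBEC3D (0.28) and APOBEC3F (0.029). Over all 12 such fits they ranged from -1.38 to 0.28 and from -0.22 to 0.029. With APOBEC3D and AL022318.4 summed, that APOBEC3D difference was -0.96 and passed (adjusted p = 0.0345). APOBEC3C at 200 ng/ml lost its pass with RLE size factors (adjusted p = 0.0546), without the filter (0.0551) and with only the compared groups (0.0831), as did APOBEC3B in the last (0.0550). Over 6 settings that left out no single library, APOBEC3B in D-F passed in 4 at 200 ng/ml (adjusted p up to 0.0749). At 20 ng/ml in D-F it passed in 3 of them (adjusted p up to 0.106). APOBEC3G passed at both averaged doses in every alternative run.

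Replicate numbers did not pair the samples (correlation of same-numbered deviations between -0.05 and 0.06). With the replicate block, members called stayed at 0 at 200 ng/ml and 1 between untreated D and A, while APOBEC3C did not pass at 200 (adjusted p = 0.0614) or 20 ng/ml (0.0549), nor APOBEC3B in D-F (0.0516 and 0.0820). Depth limits APOBEC3A, APOBEC3H and APOBEC3D most.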
